A study of Mus musculus with 9 samples.

Results

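Neat1, Malat1, Miat and Tug1 are genes for long non-coding RNAs that stay largely in the nucleus. Their PRO-seq signal was followed in mouse embryonic stem cells in which the lncRNA gene Firre had been knocked out and a doxycycline-inducible Firre transgene added. A region was assigned to a gene when its centre lay inside the gene, or within 2 kb of either end, on the mm10 build (GRCm38 gene annotation of RefSeq). This gave 17 of the 174289 deposited regions, with 1 at Neat1, 1 at Malat1, 14 at Miat and 1 at Tug1. Every region was counted in a window of 600 bp, so levels can be compared between windows, apart from those that overlap another.

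PRO-seq is a nuclear run-on assay that maps RNA polymerase engaged on DNA, so it reads ongoing transcription rather than the amount of RNA. Neat1 RNA is the scaffold of paraspeckles, nuclear bodies that hold RNA-binding proteins such as Nono and Sfpq. Malat1 RNA gathers in nuclear speckles, which store splicing factors, and its end is cut by RNase P into a stable nuclear RNA and a small tRNA-like RNA. Miat, also called Gomafu, forms its own nuclear spots, binds the splicing factor Sf1 and is best known from neurons. Tug1 was first described in the developing mouse retina and has been linked to Polycomb repression.

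There were 3 groups of 3 libraries: no doxycycline (0 min), and 15 min and 30 min after 1 ng/μL doxycycline, which was given the day after seeding. All 9 libraries shared the cell line, the knockout, the transgene and a medium with serum, LIF, a MEK inhibitor and a GSK3 inhibitor, and the nuclei were mixed with 1% of nuclei from Drosophila S2 cells. No library had doxycycline without the transgene, so drug and transgene cannot be told apart. The labels give replicate numbers 1 to 3 but not whether these were separate cultures, so each p-value speaks to variation among the libraries of a time, which may be no more than technical.

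Reads in the regions numbered 3813365 to 5980366 per library. Levels are CPM, in which reads are scaled by each library's total over regions and its TMM factor. Firre, summed over its regions, was higher by a log2 of 6.53 at 15 min and 7.93 at 30 min than at 0 min. On the second principal component of the libraries (13.9% of the variance) 15 min library 3 lay at 85.6 and 0 min library 2 at -55.1, with the other 7 between -26.9 and 16.5, and values that turned on either are also given without it. Of 10 stem cell markers 9 had a region, the exception being Pou5f1 (Oct4), with a summed level of 1468 to 1695 CPM at 0 min, 1698 to 1804 at 15 min and 1753 to 1827 at 30 min. Neural markers (7 of 7 with a region) lay between 199.99 and 228 CPM in all 9 libraries. Feeder fibroblast markers (4 of 8) summed to 7.54 to 12.5, 7.11 to 8.76 and 5.47 to 8.91 CPM at 0, 15 and 30 min. Primitive endoderm markers (5 of 6) lay between 32.1 and 40.3 CPM and mesoderm markers (4 of 5) between 57.8 and 70.9 CPM in all 9 libraries. None of these markers with a region was at 0 reads, and none of the 4 two-cell markers had a region. Their part in the results below was not tested.

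The promoter sequences of Malat1, Tug1 and Miat are shown because the Malat1 and Tug1 windows cover the annotated start and the Miat windows do not. They come from RefSeq (GRCm38.p6) and run from 250 bases before to 50 bases after the start, in the direction of the gene, which is the minus strand for all 3. Capitals mark matches on either strand to the GC box GGGCGG, the CRE core TGACGT and the YY1 core AAGATGG.
Malat1 (chr19:5802623-5802922): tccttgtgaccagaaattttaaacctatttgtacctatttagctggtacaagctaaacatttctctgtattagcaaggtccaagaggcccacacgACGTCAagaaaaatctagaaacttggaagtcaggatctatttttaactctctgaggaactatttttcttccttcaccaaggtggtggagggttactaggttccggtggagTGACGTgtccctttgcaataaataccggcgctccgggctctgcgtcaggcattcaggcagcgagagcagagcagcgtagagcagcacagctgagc
Tug1 (chr11:3648765-3649064): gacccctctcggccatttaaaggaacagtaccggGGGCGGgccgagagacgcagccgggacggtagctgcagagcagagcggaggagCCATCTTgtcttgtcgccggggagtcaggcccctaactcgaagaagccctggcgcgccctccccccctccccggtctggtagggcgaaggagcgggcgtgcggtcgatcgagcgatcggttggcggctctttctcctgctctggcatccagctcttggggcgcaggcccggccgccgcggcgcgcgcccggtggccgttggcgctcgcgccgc
Miat (chr5:112228899-112229198): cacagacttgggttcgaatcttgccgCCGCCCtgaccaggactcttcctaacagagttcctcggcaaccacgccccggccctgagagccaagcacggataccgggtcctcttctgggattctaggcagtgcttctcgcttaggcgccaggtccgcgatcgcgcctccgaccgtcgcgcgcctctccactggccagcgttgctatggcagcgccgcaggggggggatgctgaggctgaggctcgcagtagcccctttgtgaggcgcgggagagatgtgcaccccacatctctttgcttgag
The Tug1 and Miat promoters are rich in G and C (71.3% and 64.3%, with 37 and 25 CpG), whereas Malat1 has 47.0% and 10 CpG. The median over 32851 promoters was 52.7% and 7 CpG. Malat1 held 2 CRE cores, 155 bases before the start on the opposite strand and 45 before it on the gene's own strand, and 7.51% of all promoters held at least 1. Tug1 held a GC box 216 bases and a YY1 core 163 bases before the start, and Miat a GC box 224 bases before it. A GC box was found in 35.7% of promoters and a YY1 core in 6.34%. The searches for a TATA box (TATAAA, in 13.6% of promoters), a CCAAT box (CCAAT, 37.4%), an E-box (CACGTG, 7.15%), an ETS site (CCGGAAG, 8.86%) and an AP-1 site (TGACTCA, 5.20%) found no match in these 3 windows of sequence. A match is a run of letters and not a measured binding site.

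Neat1, the paraspeckle scaffold gene (chr19:5824708-5845480, 20.8 kb), had the highest signal of the 4 genes and was the only one whose window passed the test. Its region bidir_78807 (chr19:5845825-5846424) is centred 644 bp beyond the higher end of the gene. The window lies wholly outside the annotated gene, so Neat1 values here are those of this adjoining window. The region called by the authors is 4460 bp wide, so the window counts only its middle. The tables used give no strand for Neat1, so whether the window lies before its start or past its far end was not determined. The window had 391, 396 and 397 CPM in libraries 1 to 3 at 0 min, 437, 458 and 517 CPM at 15 min, and 498, 488 and 508 CPM at 30 min. All 6 libraries with doxycycline lay above all 3 without it, while the 15 and 30 min libraries overlapped. The means were 395 ± 3.21, 471 ± 41.5 and 498 ± 10.3 CPM (SD, n = 3 libraries each).

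**Figure D1:**
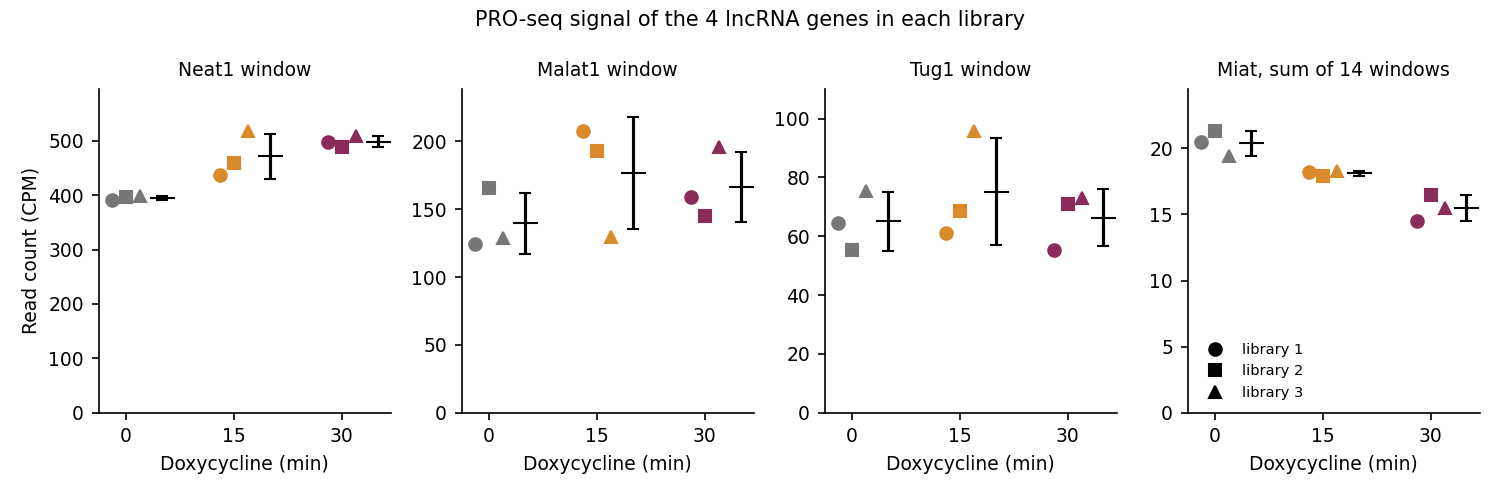
Signal of the 4 genes in each library (CPM, y axis from 0 in each panel) against minutes of doxycycline. Marker shapes are library numbers, and bars show mean ± SD of 3 libraries. The Neat1 window lies at 391 to 397 CPM at 0 min and at 437 to 517 CPM later, and the Miat sum is ordered 0, 15, 30 min from high to low.

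At 30 min the Neat1 window rose against 0 min by a log2 of 0.33 ± 0.09 (SE), with adjusted p = 0.0456 (edgeR quasi-likelihood test, Benjamini-Hochberg over all 54299 regions tested). It was the only 1 of the 6 tested windows called at 30 min, where 1.74% of all tested regions were called and 1.24% were called higher. The call was lost without any 1 of the 3 libraries at 0 min or the 3 at 30 min. Over the 9 omissions the log2 change stayed between 0.32 and 0.34 and the adjusted p lay between 0.0141 and 0.168. DESeq2 gave a log2 of 0.32 with adjusted p = 0.0509, and no filter on low counts gave 0.30 with 0.201.

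At 15 min the Neat1 window was at a log2 of 0.25 ± 0.09 above 0 min and missed the threshold (95% interval 0.07 to 0.43, adjusted p = 0.0722 by edgeR). Without 15 min library 3, which had the highest Neat1 level, it was 0.17 (adjusted p = 0.206), and over the 9 omissions it lay between 0.17 and 0.30 and was not called. In 13.7% of all tested regions the 15 min libraries lay wholly above those of 0 min, as they did here, and at 30 min in 11%. Between 30 and 15 min the difference was 0.08 ± 0.09 (95% interval -0.10 to 0.26, adjusted p = 0.830). The order of the Neat1 means was thus 30, 15 and 0 min, and the neighbours 30 and 15 min did not differ beyond their spread.

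A second fit summed regions per gene by the same 2 kb rule for all annotated genes, of which 21899 were tested, with scaling factors of its own. There Neat1, still 1 window, rose at 15 min by a log2 of 0.31 ± 0.08 (adjusted p = 0.0168) and at 30 min by 0.38 ± 0.08 (adjusted p = 0.0188). In this fit 13.1% of genes were called at 15 min and 2.68% at 30 min. The 15 min call was lost without 15 min library 2 (adjusted p = 0.0584), and without 15 min library 3 the value was 0.28 (adjusted p = 0.0347). The 30 min call was lost without 0 min library 1 or 3 or any 1 library of 30 min (adjusted p = 0.0573 to 0.0881). The 2 fits used the same Neat1 reads but differed in scaling factors, dispersion and the number of features. Scaled by library size alone, Neat1 at 15 min was called in neither fit (for the window a log2 of 0.22, adjusted p = 0.0987 by edgeR). What dispersion and the number of features added was not tested.

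Malat1, the speckle-associated RNA gene 22.0 kb from Neat1 on the same chromosome (chr19:5795690-5802672, 6.98 kb), had a single region as well. The window of bidir_78804 (chr19:5802592-5803191) covers the annotated start at 5802672 and overlaps the promoter shown above. It had 125, 166 and 129 CPM at 0 min, 208, 193 and 129 CPM at 15 min, and 159, 145 and 196 CPM at 30 min. At 15 min libraries 1 and 2 lay above every 0 min library and library 3 lay within their range. The means were 140 ± 22.5, 177 ± 41.5 and 167 ± 26.0 CPM (SD, n = 3 each).

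The Malat1 window was at a log2 of 0.34 ± 0.15 above 0 min at 15 min (95% interval 0.04 to 0.64, adjusted p = 0.150 by edgeR) and at 0.25 ± 0.15 above it at 30 min (-0.05 to 0.55, adjusted p = 0.428). Neither passed the test, and 30 against 15 min gave -0.09 ± 0.14 (adjusted p = 0.897). When 15 min library 3, which stood out on the second component, was left out, the 15 min value was 0.51 with adjusted p = 0.00574. Without the other 8 libraries in turn it lay between 0.21 and 0.47 and was not called. In the gene fit, the 15 min value without that library was 0.61 (adjusted p = 0.00387), and without 0 min library 2, which had the highest Malat1 level at 0 min, it was 0.57 (adjusted p = 0.0357). The means stood in the order 15, 30 and 0 min, and the test separated none of the 3 pairs of times with all libraries in.

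Between Malat1 and Neat1 lie 2 further regions, outside the 2 kb limit. bidir_78805 (chr19:5812057-5812656), 9.68 kb above Malat1, averaged 25.3 ± 2.91, 29.4 ± 6.02 and 31.7 ± 2.13 CPM at 0, 15 and 30 min (SD, n = 3 each). bidir_78806 (chr19:5817856-5818455), 6.55 kb below Neat1, averaged 16.2 ± 2.68, 16.7 ± 0.66 and 15.7 ± 2.17 CPM. At 15 min bidir_78805 had 34.7, 30.7 and 22.8 CPM in libraries 1 to 3, so library 3 was the lowest here too, as it was for Malat1. These windows are given as a description, with no test.

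**Figure D2:**
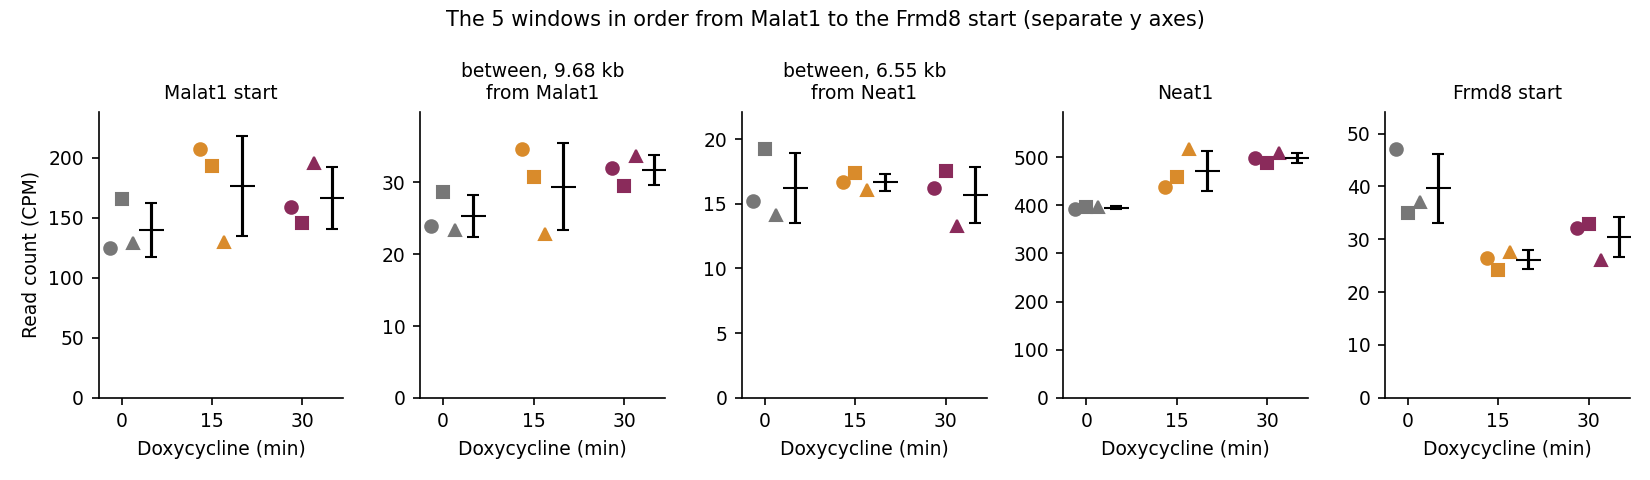
Signal (CPM, separate y axes from 0) of the windows from the Malat1 start to bidir_78808 of Frmd8, in chromosome order, by minutes of doxycycline. The panel of bidir_78808 is titled Frmd8 start, but no strand of Frmd8 is given here, so its start was not determined. Shapes are library numbers as in the plot of the 4 genes, and bars show mean ± SD of 3 libraries. Neat1 is higher with doxycycline (471 and 498 against 395 CPM), while the Frmd8 window is lower at 15 min (26.1 against 39.7 CPM).

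On the far side of Neat1 the next gene with a region is Frmd8, which encodes a FERM domain protein. Its nearer end is 5.49 kb from Neat1 and its 1 region, bidir_78808, is centred 29.86 kb away. Its gene sum had 45.4, 34.6 and 36.0 CPM at 0 min, 27.3, 25.3 and 27.0 CPM at 15 min, and 32.7, 33.1 and 26.2 CPM at 30 min. Frmd8 fell at 15 min by 0.55 ± 0.15 on the log2 scale (adjusted p = 0.0218 in the gene fit), a call lost without 0 min library 1 or 15 min library 1 or 2. At 30 min it was at -0.34 ± 0.15 (adjusted p = 0.239). Of the 12 neighbours of the 4 genes, up to 2 on each side, 9 were tested, and Frmd8 was the only 1 called at any time, at 15 min, when 13.1% of all genes were called. Their median log2 change was -0.21 at 15 min and -0.20 at 30 min, beside a median of -0.0046 and -0.0080 over all genes tested. Morc2a, shares the Tug1 window, and 1700028D13Rik shares a Miat window.

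Miat, the Gomafu gene (chr5:112213228-112228948, 15.7 kb), differed from the others in having many weak regions. Unlike Malat1 and Tug1, it had none at its start. The start lies at 112228948, and the nearest window, bidir_123878, is centred 1111 bp inside the gene. Its 14 windows held 796 reads in all 9 libraries, and 10 of the 14 overlapped another window. How reads in the overlaps were counted is not given, so some may be counted more than once or left out. The member farthest out was bidir_123865, centred 1708 bp beyond the far end of Miat with 37 reads in all, and it also belongs to 1700028D13Rik. The nearest region left out, bidir_123864, was 4.60 kb from that end with 19 reads. At 0 min the signal peaked far downstream, at bidir_123868 (chr5:112215875-112216474) with 7.42 ± 1.36 CPM and at bidir_123869 (chr5:112217057-112217656) with 5.26 ± 1.46 CPM. These windows are centred 12.8 kb and 11.6 kb from the start. The others lay between 0.06 and 2.31 CPM at 0 min, and bidir_123876 had 0 reads in all 3 libraries at 15 min, which allows up to 0.50 to 0.73 CPM per library (3 counts, counting error only).

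**Figure D3:**
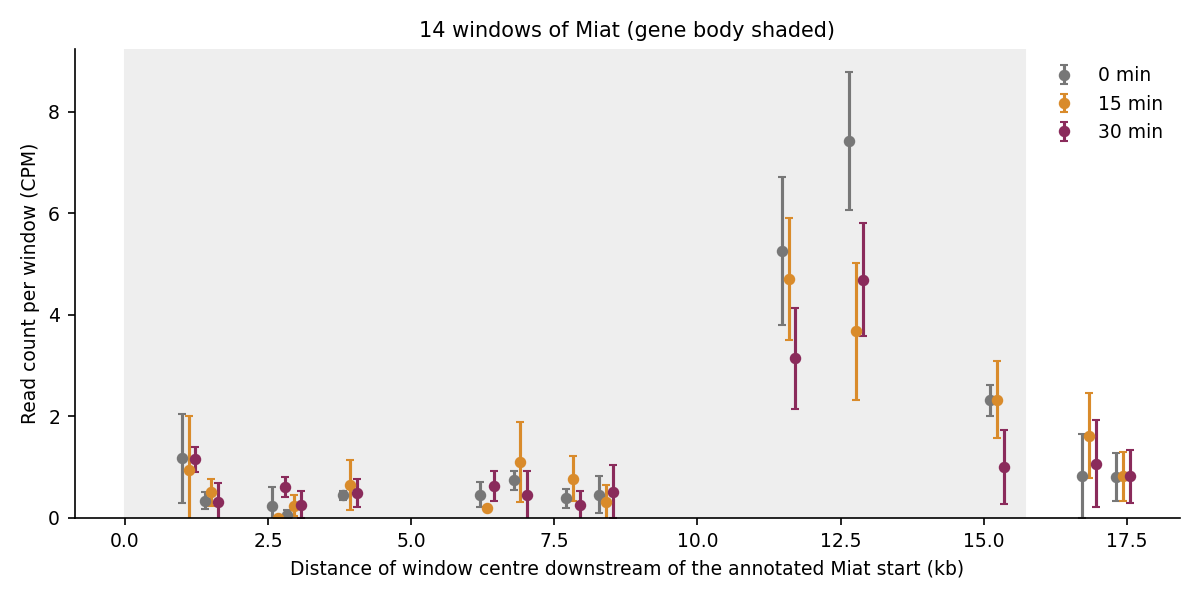
Mean CPM ± SD (n = 3 libraries) of each Miat window against the distance of its centre from the annotated start (kb), with the gene shaded and times set slightly apart. The 2 highest windows are at 11.6 and 12.8 kb, and at both the 30 min mean (3.14 and 4.69 CPM) lies under the 0 min mean (5.26 and 7.42 CPM).

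Summed over its 14 windows Miat had 20.5, 21.3 and 19.4 CPM at 0 min, 18.2, 17.9 and 18.3 CPM at 15 min, and 14.5, 16.5 and 15.5 CPM at 30 min (gene fit scaling). The libraries of the 3 times did not overlap, in the order 0, 15, 30 min from high to low. The means were 20.4 ± 0.95, 18.1 ± 0.18 and 15.5 ± 0.99 CPM (SD, n = 3 each). No step passed the test. The log2 change was -0.17 ± 0.15 at 15 against 0 min (95% interval -0.49 to 0.15, adjusted p = 0.496), -0.40 ± 0.15 at 30 against 0 min (-0.73 to -0.07, adjusted p = 0.181) and -0.23 ± 0.16 at 30 against 15 min (-0.56 to 0.10, adjusted p = 0.625). Libraries that lie wholly below those of the earlier time were found in 15.2%, 11.7% and 8.24% of all genes in these comparisons. These sums rest on 65 to 120 reads per library. Summed over the 4 windows that overlap no other, the 30 min value was -0.68 (adjusted p = 0.0568).

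Only 3 of the 14 Miat windows passed the filter on low counts. bidir_123868 had 5.85, 8.28 and 8.13 CPM at 0 min, 4.83, 4.003 and 2.19 CPM at 15 min, and 4.74, 5.78 and 3.56 CPM at 30 min. Every library with doxycycline lay below every 0 min library, as in 11.8% of all tested regions at 15 min and 9.39% at 30 min. The log2 change at 15 min was -0.96 ± 0.31 (adjusted p = 0.0555 by edgeR, just above the threshold of 0.05), and at 30 min it was -0.63 ± 0.30 (adjusted p = 0.322). The 15 min value stood on either side of the threshold as the settings changed. It was called with DESeq2 size factors, library size alone or only windows that overlap no other, at -0.98, -0.98 and -0.97. It was not called with factors from gene-end regions (-0.80, adjusted p = 0.118), the DESeq2 test (-0.99, adjusted p = 0.0752), no filter (-0.997, adjusted p = 0.0658), a filter of 20 counts in 3 libraries (-0.95, adjusted p = 0.0523) or the 2 times fitted alone (-0.96, adjusted p = 0.0761). With 1 library left out it lay between -1.21 and -0.73 and was called in 0 of 9 cases (adjusted p = 0.0565 to 0.143), and the value nearest 0 was that without 15 min library 3. bidir_123869 had 6.73, 3.80 and 5.24 CPM at 0 min, 3.83, 4.19 and 6.07 CPM at 15 min, and 2.37, 2.80 and 4.27 CPM at 30 min. Its 30 min value was -0.78 ± 0.34 (adjusted p = 0.265), and the libraries overlapped. bidir_123867 (chr5:112213420-112214019), near the far end of the gene, had 2.30, 2.01 and 2.62 CPM at 0 min, 2.67, 2.86 and 1.46 CPM at 15 min, and 1.09, 1.68 and 0.24 CPM at 30 min, at -1.12 ± 0.54 for 30 against 0 min (adjusted p = 0.325). Its 30 min libraries lay wholly below those of 0 min, as in 9.39% of all tested regions. With 6, 9 and 1 reads at 30 min, it passed the low-count filter through the earlier times. That favours a fall at 30 min, so its 30 min values are a description.

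The 11 windows that did not pass the filter summed to 5.90 ± 1.78, 7.14 ± 1.60 and 6.50 ± 0.73 CPM at 0, 15 and 30 min (SD, n = 3). The 3 that passed summed to 15.0 ± 0.95, 10.7 ± 0.87 and 8.84 ± 1.23 CPM (region fit scaling, as for all single windows). The filter can favour windows that are high at 1 time, so this split is a description. The share of Miat reads within 2 kb of the start was 7.13% ± 4.03, 8.23% ± 7.40 and 9.62% ± 3.02 (SD, n = 3 libraries each). No pair of times was separated (exact permutation test, two-sided, p = 0.8 at 15 against 0 min, 0.5 at 30 against 0 min and 0.7 at 30 against 15 min, where 0.1 is the smallest p possible).

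Tug1, the gene linked to Polycomb repression (chr11:3639785-3648814, 9.03 kb), had 1 region at its start. The window of bidir_25014 (chr11:3648428-3649027) is centred 87 bp inside the gene. The nearer end of Morc2a, a chromatin ATPase gene, lies 375 bp beyond the Tug1 start, on the side of the promoter shown. By the 2 kb rule the window belongs to both, and without the strand counted, reads of the 2 genes cannot be told apart. It had 64.5, 55.5 and 75.5 CPM at 0 min, 61.0, 68.6 and 95.7 CPM at 15 min, and 55.2, 70.8 and 73.0 CPM at 30 min. The 3 times overlapped, and the highest value was again in 15 min library 3, the library apart from the rest. The means were 65.2 ± 10.0, 75.1 ± 18.2 and 66.3 ± 9.71 CPM (SD, n = 3 each). The log2 change was 0.20 ± 0.15 at 15 against 0 min (95% interval -0.12 to 0.52, adjusted p = 0.467), 0.03 ± 0.16 at 30 against 0 min (-0.29 to 0.35, adjusted p = 0.963) and -0.17 ± 0.15 at 30 against 15 min (-0.49 to 0.14, adjusted p = 0.779). When 15 min library 3 was left out the first of these was -0.013, and the gene fit gave 0.09, against 0.25 with all libraries.

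Side by side, the windows of the 4 genes spanned a wide range of level. At 0 min the Neat1 window exceeded 99.8% of the 28416 windows at gene ends, Malat1 98.5% and Tug1 94.1%, whereas the strongest Miat window, at 7.42 CPM, exceeded 62.3%. The median window at gene ends had 2.88 CPM. Among 5379 lncRNA genes with a window at a gene end, ranked by the highest such window over all 9 libraries, Neat1 was at rank 12, Malat1 at 96, Tug1 at 342 and Miat at 3075. That end could be of any gene. A window can thus count for a lncRNA gene and for another gene, as the Tug1 window does for Morc2a. Miat's rank reflects bidir_123867, its only window at a gene end.

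**Figure D4:**
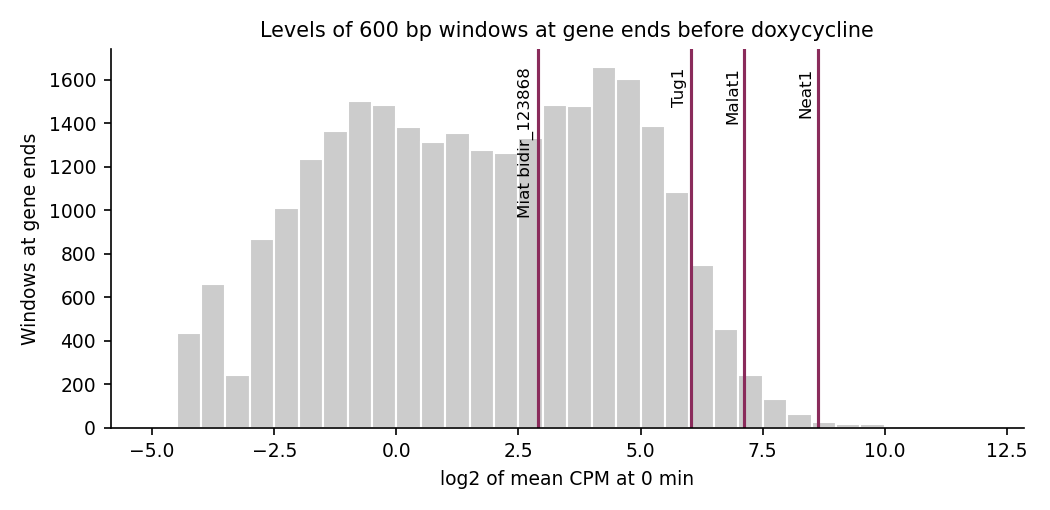
Number of windows at gene ends against the log2 of their mean CPM at 0 min (n = 3 libraries), leaving out windows at 0 reads. Vertical lines mark Neat1 (395 CPM), Malat1 (140 CPM), Tug1 (65.2 CPM) and, for reference, the highest Miat window (7.42 CPM), which lies inside the gene, from right to left.

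Of the 17 windows 6 passed the filter, and by edgeR 0 of 6 were called at 15 against 0 min, beside 8.25% of all tested regions (4.29% higher and 3.96% lower). At that time 3 of the 6 had an unadjusted p under 0.05 (Neat1, Malat1 and bidir_123868 of Miat), beside 12586 of all 54299 tested regions. DESeq2 called 0 of the 6. At 30 against 0 min 1 of 6 (Neat1) was called by edgeR, beside 1.74% of all regions, and DESeq2 called 0. There 4 of the 6 had an unadjusted p under 0.05, beside 8248 of the 54299 regions. Of these 4, Neat1 was higher and the 3 tested Miat windows were lower. At 30 against 15 min 0 of 6 were called, beside 0.704% of all regions (0.214% higher and 0.49% lower), and DESeq2 called 0. Of the 6, 1 (bidir_123867 of Miat) had an unadjusted p under 0.05, beside 5230 of the 54299 regions. bidir_123867 passed the filter through its 0 and 15 min libraries, which favours a fall at 30 min. At 30 against 15 min the libraries of 0 of the 6 tested windows lay wholly apart, against 7.8% of all tested regions wholly above and 8.17% wholly below. As gene sums, 1 of 4 (Neat1) was called at 15 min, beside 5.93% of all genes higher and 7.21% lower, and at 30 min, beside 1.59% higher and 1.09% lower. In this fit libraries with doxycycline lay wholly above those without it in 14.5% of genes at 15 min and 12% at 30 min, and 30 min wholly above 15 min in 9.4%. There were 0 of 4 gene sums called at 30 against 15 min, beside 0.945% of all genes (0.356% higher and 0.589% lower). DESeq2 called 0, and 0 had an unadjusted p under 0.05, beside 2560 of all 21899 genes. With TMM factors taken from gene-end regions only, the median of all regions at 15 min was 0.18 in place of 0.02, and Neat1 (0.40) and Malat1 (0.50) were both called there. Relative to the median of all regions Neat1 was at 0.22 in place of 0.23 and Malat1 at 0.32 in place of 0.32.

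**Figure D5:**
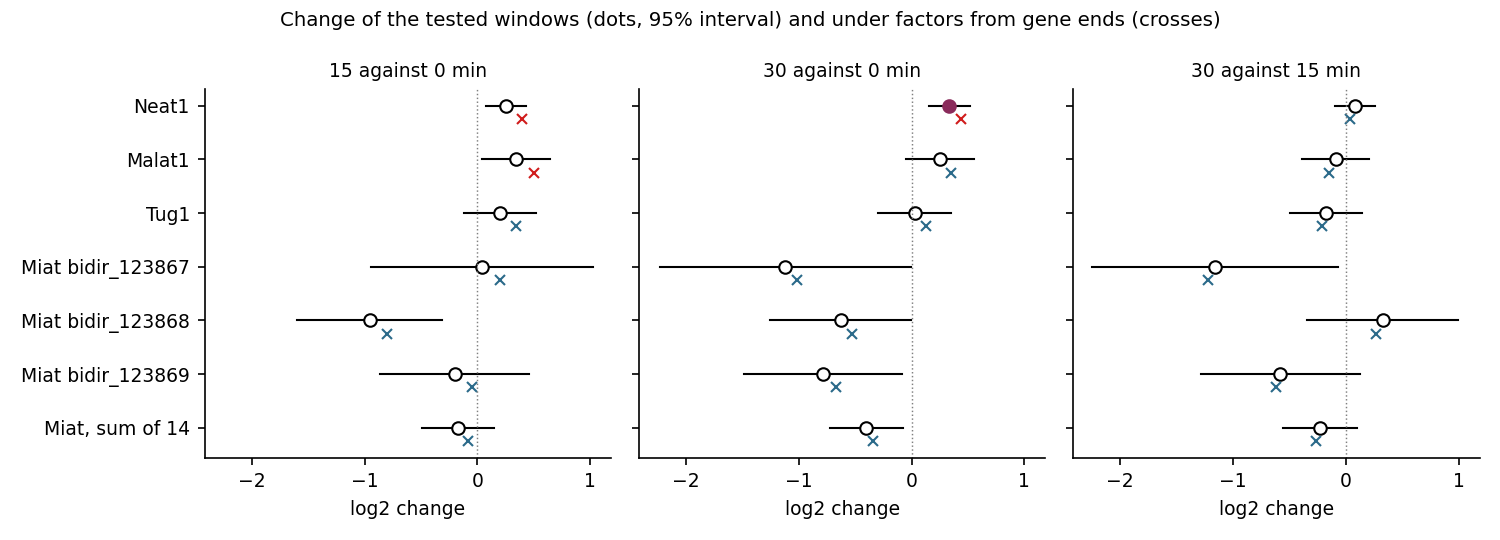
Log2 change (x axis) of the 6 tested windows and the Miat sum in the 3 comparisons, with the 95% interval as a line. Filled dots passed the test at an adjusted p of 0.05. Crosses give the value with TMM factors from gene-end regions, red where called. The only filled dot is Neat1 at 30 against 0 min (0.33), and crosses are red for Neat1 (0.40) and Malat1 (0.50) at 15 min and for Neat1 at 30 min.

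Genes for the protein partners of these RNAs were read from the same gene fit. Of 20 paraspeckle protein genes 17 were tested. At 15 min 2 rose and 1 fell, beside 5.93% of all genes called higher and 7.21% called lower, with a median log2 of 0.07 beside -0.0046 over all genes. Tardbp, which encodes TDP-43, rose by 0.38 ± 0.08 at 15 min (adjusted p = 0.00509), with 204 CPM against 157 CPM at 0 min, and was called without any 1 library. It also rose at 30 min, by 0.35 ± 0.08 (adjusted p = 0.0276), a call lost without 0 min library 1 or 3 or any 1 library of 30 min. Hnrnpa1, a splicing repressor gene, rose at 15 min by 0.35 ± 0.09 (adjusted p = 0.0197), but not without 0 min library 1 or 3 or 15 min library 1. Dazap1, an RNA-binding protein gene, fell at 15 min by 0.65 ± 0.18 on the log2 scale (adjusted p = 0.0246), but not without 0 min library 1 or 3 or 15 min library 1 or 2. At 30 min Tardbp was the only 1 of 17 called, beside 2.68% of all genes, with a list median of -0.02.

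All 23 nuclear speckle genes were tested, with a median log2 of 0.11 at 15 min and 0.05 at 30 min. At 15 min 2 rose and 0 fell, where 13.1% of all genes were called. Clk1, the gene of a kinase that phosphorylates SR proteins, rose by 0.39 ± 0.10 (adjusted p = 0.0219), but not without 0 min library 3 or 15 min library 1. Pnisr, the gene of an SR-related protein, rose by 0.34 ± 0.10 (adjusted p = 0.0411), and was called only without 0 min library 2 or 15 min library 3 among the 9 omissions. At 30 min 0 of 23 were called by edgeR, beside 2.68% of all genes, and DESeq2 called 0. An unadjusted p under 0.05 was found in 0 of 23, beside 3785 of all 21899 genes. Among genes that act with RNase P or cut tRNA ends, 11 of 12 were tested and 0 were called at any time. They had 1 unadjusted p under 0.05 at 15 min, 2 at 30 min and 2 at 30 against 15 min, and DESeq2 called 0. Over all 21899 genes, the unadjusted p was under 0.05 in 6249, 3785 and 2560 in these comparisons. The shares of all genes called by edgeR were 13.1%, 2.68% and 0.945%. Of 5 splicing factor genes tied to Miat 3 were tested, and 0 were called by edgeR or DESeq2, with 0 unadjusted p-values under 0.05 at any time. A list of 3 genes is too short to set against these shares.

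Of 21 other nuclear lncRNA genes 14 were tested, and their median log2 was -0.03 at 15 min and -0.01 at 30 min. At 15 min edgeR called 1 and DESeq2 called 2 of the 14, where edgeR called 13.1% of all genes. Of the 14, 3 had an unadjusted p under 0.05, beside 6249 of all 21899 genes. Airn, the imprinted antisense RNA gene at the Igf2r locus and the 1 called by edgeR, fell at 15 min by 0.55 ± 0.17 on the log2 scale (adjusted p = 0.0421). This call was lost without 0 min library 1, 15 min library 1 or 2, or 30 min library 2 or 3, and with factors set on gene ends (-0.46, adjusted p = 0.0622). At 30 against 0 min 0 of 14 were called by edgeR or DESeq2, where edgeR called 2.68% of all genes. Of the 14, 2 had an unadjusted p under 0.05 there, beside 3785 of all 21899 genes. At 30 against 15 min 0 of all 77 tested listed genes were called by edgeR or DESeq2, where edgeR called 0.945% of all genes. Of the 77, 4 had an unadjusted p under 0.05, beside 2560 of all 21899 genes.

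The genes whose levels most resembled each of the 4 were found by Pearson's r of gene-sum log2 CPM over the 9 libraries, among 15890 genes with at least 50 reads per library on average. This is a description over libraries that share depth and scaling, and among so many genes high values arise readily. For Neat1 they were Gm29776, Firre and Gm35612 (r = 0.97, 0.97 and 0.96). Their log2 changes at 15 and 30 min against 0 min were 0.61 and 0.67 for Gm29776, 6.53 and 7.93 for Firre, and 6.77 and 8.04 for Gm35612, beside 0.31 and 0.38 for Neat1. Gm35612 adjoins Firre on the X chromosome, so by the 2 kb rule a region can count for both. For Malat1 they were Gm23143, Cyp2c66 and Tex2 (r = 0.97 each). For Miat they were Clip2, Vsig2 and Pnmal2 (r = 0.96, 0.96 and 0.94), and for Tug1 they included Klf9 and Rpl29 (r = 0.96 and 0.95).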

How the data were processed

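PRO-seq libraries of 9 samples were used. The authors' deposited table holds raw counts per region and library, and the deposited region lists hold other values, giving where on mm10 every region begins and ends. Per the submitters' processing notes, HISAT2, featureCounts and DESeq2 1.26.0 were used on mm10. Their settings and the strand counted are not given in the sources used here. Of all windows 29.2% overlap another. Drosophila reads were not used here, so changes are relative to other mouse regions.

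Members and lists were chosen with earlier results of these data known. Counts were fitted in R 4.3.3 with edgeR 4.0.16 (quasi-likelihood, TMM, default low-count filter, time as a factor, all 9 libraries), after a test on simulated data. P-values were adjusted over all regions, or all genes for counts summed per gene, and called at 0.05. DESeq2 1.42.0 was an alternative. The SE is the log2 change over the square root of F. Tables and exact tests used Python 3.11.15 and scipy 1.17.1.

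The rule for named items takes every region of the 4 genes, with the weak Miat windows given by their range and sum. Of listed genes, those called are named (at most 3 per direction and comparison), and likeness takes 3 genes per member, of which 1 is not reported here. Genes are matched by symbol, and 3 of the 4 had a promoter sequence. The precision is limited by 3 libraries per time.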

Additional observations from a re-analysis of the deposited data

How the results depend on the processing

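With all alternatives, 500 of 541 recomputed single values kept their direction and their side of the threshold. Most of these belong to results that were not called, so the share says little about the calls. The Neat1 window at 30 against 0 min kept its call in 9 alternatives and lost it in 9. The Neat1 gene sum kept its call in 16 and lost it in 2 at 15 min. At 30 min it kept the call in 13 and lost it in 5. The number of member windows called at 15 against 0 min, 0 in the report, was 1 with DESeq2 size factors, with library size alone, with the replicate block and with windows that overlap no other (each time bidir_123868 of Miat, at -0.97 with adjusted p = 0.0478 under the block), 2 with factors from gene ends (Neat1 and Malat1), and 0 to 1 with 1 library left out. At 30 against 0 min the count of 1 (Neat1) became 0 with DESeq2 size factors, with no filter and with the DESeq2 test, and 0 to 1 with 1 library left out. The count of gene sums called, 1 at 15 min, was 0 with library size alone, 0 with centres inside the gene only (Neat1 and Malat1 then have no region) and 0 to 2 with 1 library left out. At 30 min it was 0 with centres inside only and 0 to 1 with 1 library left out. Listed genes called were 7 at 15 min (1 to 11 with 1 library left out) and 1 at 30 min (0 to 1). Except for centres inside the gene, the cause was not tested.

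Values that changed sign were all uncalled. For 15 against 0 min, bidir_123867 was at -0.0012 with no filter and -0.0028 with the replicate block, and -0.14 to 0.25 with 1 library left out. With 1 library left out, bidir_123869 ranged from -0.41 to 0.025 and Tug1 from -0.013 to 0.33. For 30 against 0 min Tug1 was at -0.0062 with no filter, and with 1 library left out at -0.080 to 0.14, or -0.0083 to 0.19 as a gene sum. For 30 against 15 min, with 1 library left out, Malat1 ranged from -0.26 to 0.044 (-0.31 to 0.028 as a gene sum) and Tug1 from -0.30 to 0.037.

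The deviations of same-numbered libraries correlated at 0.04, 0.18 and 0.10 over regions for 15 against 0 min, and at -0.05 to 0.03 for the other pairs of times. Not every pair passed 0.1, so the numbers were not used as pairs, which does not show that the libraries are unpaired. The replicate block moved the regions called from 4479 to 4804 at 15 min and from 945 to 1107 at 30 min. With factors from gene ends these calls were 4046 higher and 1056 lower at 15 min (2331 and 2148 before) and 1140 and 145 at 30 min (675 and 270 before). The share of reads within 1 kb of a start could not be given, since Miat, the 1 gene with several windows, has none there, and without overlapping windows none lies within 2 kb. Miat sums rest on 65 to 120 reads per library, against 1516 to 2736 for Neat1.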
